A study of Mus musculus with 12 samples.

Results

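Slc15a2, Slc15a3, Slc15a4, Nod1, Nod2 and Ripk2 encode a short route by which macrophages take up and sense fragments of bacterial cell wall, and they are described here as 6 genes of the 48526 in the count table. The 6 symbols were listed by function and mapped from gene identifiers through a GENCODE annotation of GRCm38, and all 6 were expressed highly enough to be tested among 15523 genes. The list was selected on results of these same libraries: Slc15a2 is among the genes that the study names as changed in the knockout after LPS, and which comparison brought in the rest is not stated. Differences of the 6 genes between groups are therefore given as descriptions, with their intervals and without p-values.

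The libraries were total RNA from BMDMs, bone marrow-derived macrophages that were matured from mouse marrow over 6 d in medium conditioned by L929 cells. There were 3 libraries in each of 4 groups: WT macrophages treated with PBS for 6 hr (WT UT), homozygous HSS9 KO macrophages treated with PBS for 6 hr (KO UT), and the same genotypes treated for 6 hr with LPS, the outer membrane glycolipid of Gram-negative bacteria (WT LPS and KO LPS). HSS9 is a hypersensitive site upstream of Tnf, and the KO removes it from every cell of the mouse. The labels call the WT mice littermates while the methods of the study describe purchased C57BL/6 mice and homozygous breeding pairs of the KO, so the genotypes may differ in more than the deletion. The methods state that male mice were used, the LPS dose is not given in the sources used here, and nothing says whether the libraries of a group came from separate animals, so the spread between them may be technical. Each batch number in the labels holds 1 library of each group.

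SLC15 proteins are proton-coupled carriers of di- and tripeptides. Slc15a2 encodes PEPT2, a carrier of the plasma membrane, whereas Slc15a3 and Slc15a4 encode PHT2 and PHT1, carriers of peptides and histidine in the membranes of endosomes and lysosomes. Muropeptides, the breakdown products of peptidoglycan, reach the cytosol through such carriers and are sensed there by NOD1, which recognises fragments holding diaminopimelic acid, and by NOD2, which recognises muramyl dipeptide. Both receptors recruit the kinase RIPK2, which carries the signal to NF-κB and MAP kinases. LPS itself is sensed by TLR4 and not by the NOD proteins, so the LPS groups show how the genes of the route respond to a different bacterial signal.

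Reference promoters of the members are shown because the levels of these genes differ between genotypes or after LPS. The windows run from 250 bases before to 50 bases after the RefSeq start site on GRCm38.p6, each read 5′ to 3′ on the strand of the gene, and 4 of the 6 genes had one. Those of Slc15a2 (chr16:36784913-36785212, minus strand), Nod1 (chr6:54972563-54972862, minus strand) and Nod2 (chr8:88647097-88647396, plus strand) are printed. The capitals in Slc15a2 mark ACTTCC, which is the core of the PU.1 motif (GGAAGT) read on the other strand.

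Slc15a2: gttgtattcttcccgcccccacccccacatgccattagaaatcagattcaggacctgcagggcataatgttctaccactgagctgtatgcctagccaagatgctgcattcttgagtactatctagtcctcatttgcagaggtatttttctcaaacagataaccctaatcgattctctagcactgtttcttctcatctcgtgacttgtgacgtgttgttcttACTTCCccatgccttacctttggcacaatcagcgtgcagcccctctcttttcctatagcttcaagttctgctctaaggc

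Nod1: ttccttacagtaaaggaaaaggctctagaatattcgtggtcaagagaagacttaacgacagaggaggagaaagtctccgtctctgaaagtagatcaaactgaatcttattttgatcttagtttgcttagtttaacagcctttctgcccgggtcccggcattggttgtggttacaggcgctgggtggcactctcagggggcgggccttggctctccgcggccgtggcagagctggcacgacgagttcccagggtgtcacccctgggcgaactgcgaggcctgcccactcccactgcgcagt

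Nod2: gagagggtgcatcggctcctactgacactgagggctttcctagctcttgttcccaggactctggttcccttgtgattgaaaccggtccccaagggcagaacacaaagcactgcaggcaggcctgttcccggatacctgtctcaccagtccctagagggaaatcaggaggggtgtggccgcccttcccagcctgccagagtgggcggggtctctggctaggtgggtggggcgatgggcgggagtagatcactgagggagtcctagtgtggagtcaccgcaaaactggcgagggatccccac

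The windows were searched on both strands for the κB consensus, the ISRE (GAAA, any 2 bases, GAAA), the AP-1 motif TGANTCA and the PU.1 core. The PU.1 core was present in the Slc15a2 window, at position -29 from the start site, and in a second RefSeq window of Nod1, at position -156 from its own start site. No window of these genes held the κB consensus, the ISRE or the AP-1 motif, a statement on these letters in these windows alone. Over all 32851 RefSeq windows of this length, 23.8% held the PU.1 core, 8.46% the κB consensus, 7.81% the AP-1 motif and 3.44% the ISRE. The Slc15a2 window held 5 CG pairs and was 46.3% G and C, against 23 CG pairs and 64.0% in the window of Slc15a4. Its start site and that of the printed Nod1 window are also the GENCODE gene starts, while that of Nod2 lies 32 bases from it.

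The libraries held 26154533 to 36423921 counts each (1.39-fold), and levels are given as CPM, the counts of a gene relative to its library's total after TMM scaling. As a check of the KO label, Tnf had 22172, 20154 and 19902 counts in WT LPS against 11003, 11974 and 11608 in KO LPS, and 632, 679 and 761 in WT UT against 329, 358 and 360 in KO UT. In both treatments every KO library was below every WT library. The 6 macrophage markers were above 3 counts in every library and their summed level was 5364 to 5464 CPM in WT UT, 5621 to 5700 in KO UT, 6362 to 6774 in WT LPS and 7666 to 7850 in KO LPS. The summed level of 7 neutrophil markers was 18.5 to 19.9 CPM in WT UT, 40.7 to 46.2 in KO UT, 50.4 to 79.3 in WT LPS and 67.1 to 76.7 in KO LPS, with Ly6g at 0 in all 12 libraries. The summed level of 5 stromal markers was 4.58 to 5.20 in WT UT, 4.73 to 6.59 in KO UT, 21.6 to 23.8 in WT LPS and 26.3 to 28.4 in KO LPS. Most of it after LPS came from Pdgfrb, which had 19.8 CPM in WT LPS and 19.7 in KO LPS. The other 4 stromal markers, each at no more than 2.43 CPM in a group mean, were higher in KO LPS than in WT LPS, with log2 fold changes of 1.40 for Col1a1 (edgeR adjusted p = 0.0290), 1.19 for Col1a2 (0.00655), 1.49 for Col3a1 (0.0108) and 1.58 for Dcn (0.0181). Dendritic cell markers (4 genes) summed to 1.06 to 2.60 CPM over all libraries, and 3 B cell and 3 T cell markers each to at most 0.15 CPM. Genes of small structured and ribosomal RNAs took 8.04% to 9.14% of counts in KO UT, 4.30% to 4.48% in WT UT, 4.97% to 7.71% in WT LPS and 4.33% to 4.43% in KO LPS. The WT LPS libraries differed most among themselves, with a chi-square per degree of freedom of 42.2 between replicates 1 and 3 against at most 13.0 within another group. Without WT LPS replicate 1 or 3 the log2 fold change in KO LPS against WT LPS was -3.41 and -3.49 for Slc15a2, -0.24 and -0.27 for Nod1, and -0.35 and -0.27 for Nod2. For Slc15a3 it was 0.15 and 0.10, for Slc15a4 -0.01 and 0.03, and for Ripk2 -0.16 and -0.28. The part of the macrophage, neutrophil and stromal markers in the differences below was not tested. For the RNA share, values were also computed on protein-coding genes alone. They are given for Slc15a2, beside results of the 6 genes whose call or sign they change, and beside pathway gene counts that they change. In bulk RNA, fewer cells that express a gene and less RNA per cell cannot be told apart.

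Slc15a2 (ENSMUSG00000022899.8, chromosome 16, 36750177 to 36784962, minus strand) was lower in the HSS9 KO in both treatments and lower after LPS in both genotypes. Its counts were 333, 356 and 414 in WT UT, 22, 31 and 37 in KO UT, 107, 94 and 75 in WT LPS, and 11, 8 and 10 in KO LPS. The 4 groups did not overlap, and even the highest KO UT library lay below the lowest WT LPS library. The mean level was 8.15 ± 0.568 CPM in WT UT (SD, n = 3 here and below), 3.91 ± 0.348 in WT LPS, 0.827 ± 0.166 in KO UT and 0.363 ± 0.0607 in KO LPS.

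Without LPS the KO level of Slc15a2 was 9.77-fold lower than WT (95% interval 7.59 to 12.6), a log2 fold change of -3.29 (SE 0.17). After LPS it was 10.7-fold lower (7.65 to 15.01), a log2 fold change of -3.42 (SE 0.23). Among the 15523 genes tested, 20 had a lower log2 fold change in the KO than Slc15a2 without LPS and 21 had one after LPS. Within the 3 batches the difference in log2 CPM ran from -3.49 to -3.03 without LPS and from -3.57 to -3.07 after it. On protein-coding genes alone the fitted values were -3.28 and -3.46.

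LPS lowered Slc15a2 by 2.08-fold in WT (1.67 to 2.58) and 2.28-fold in the KO (1.52 to 3.42). The difference between these 2 responses on the log2 scale was -0.13 (SE 0.31, 95% interval -0.78 to 0.52) and the interval spans 0. Over the fits without 1 library it ran from -0.28 (without KO UT replicate 1) to -0.01 (without KO LPS replicate 2). In the KO the response rests on 8 to 37 counts per library, and within batches it ran from -1.43 to -0.53. In WT the log2 fold change was -1.06 (SE 0.15), just past the limit of 1 used for calls, and it was -0.99 without WT LPS replicate 3, -0.98 on protein-coding genes alone and marginally short of the limit without WT UT replicate 3, which ends the call in each case.

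Slc15a3 (ENSMUSG00000024737.2, chromosome 19, 10839727 to 10859362, plus strand) rose the most in absolute level of the 6 genes after LPS. Its level was 141 ± 2.62 CPM in WT UT, 135 ± 8.96 in KO UT, 1114 ± 42.0 in WT LPS and 1207 ± 23.8 in KO LPS. The increase was 7.88-fold in WT (7.26 to 8.56) and 8.91-fold in the KO (8.20 to 9.69), and no LPS library overlapped a UT library. The 3 KO LPS libraries held 1220, 1221 and 1179 CPM against 1162, 1091 and 1089 in WT LPS. All 3 were above the WT libraries, by a log2 fold change of 0.12 (SE 0.05, 95% interval 0.01 to 0.23) that did not pass the adjusted p threshold except without WT LPS replicate 1 (0.15). Without LPS the libraries of both genotypes overlapped, at a log2 fold change of -0.06 (SE 0.05). This was -0.14 in DESeq2, where alone it passed the threshold, and ran from -0.11 (without KO UT replicate 2) to -0.01 (without KO UT replicate 3) over the fits without 1 library. The LPS response was larger in the KO by 0.18 on the log2 scale (95% interval 0.02 to 0.33), a difference that passed the adjusted p threshold in DESeq2, under RLE scaling and without WT LPS replicate 1 (0.21), and not otherwise. DESeq2 and RLE scaling moved the median of this difference over all genes by 0.08, and that of KO UT against WT UT by -0.07. The last exons of Slc15a3 overlap those of Tmem132a on the opposite strand, which held at most 488 counts in a library, and the sources used here do not say whether strand was used in counting.

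Slc15a4 (ENSMUSG00000029416.17, chromosome 5, 127595664 to 127632897, minus strand) is the carrier that also anchors the adaptor TASL, which recruits IRF5 downstream of endosomal Toll-like receptors. It moved in the other direction from Slc15a3 after LPS. Its level was 96.5 ± 2.61 CPM in WT UT, 87.7 ± 2.19 in KO UT, 66.1 ± 2.17 in WT LPS and 67.0 ± 3.43 in KO LPS. LPS lowered it by 1.46-fold in WT (1.35 to 1.58) and by 1.31-fold in the KO (1.21 to 1.418), less than the log2 fold change of 1 that a call required. These responses differed by 0.16 on the log2 scale (95% interval -0.01 to 0.32), and by 0.24 in DESeq2 and under RLE scaling, where the difference passed the adjusted p threshold. The genotypes overlapped after LPS, at a log2 fold change of 0.02 (SE 0.06) whose sign changed under upper-quartile scaling, on protein-coding genes alone (-0.0165) and without WT LPS replicate 1 or KO LPS replicate 2. Without LPS the KO libraries held 89.1, 85.2 and 88.9 CPM against 97.96, 98.1 and 93.5 in WT. These did not overlap, at a log2 fold change of -0.14 (SE 0.05) that passed the adjusted p threshold in DESeq2, under RLE and upper-quartile scaling, in a fit of the UT groups alone and without WT LPS replicate 1 or 3, and not otherwise (range over settings -0.21 to -0.12).

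**Figure D1:**
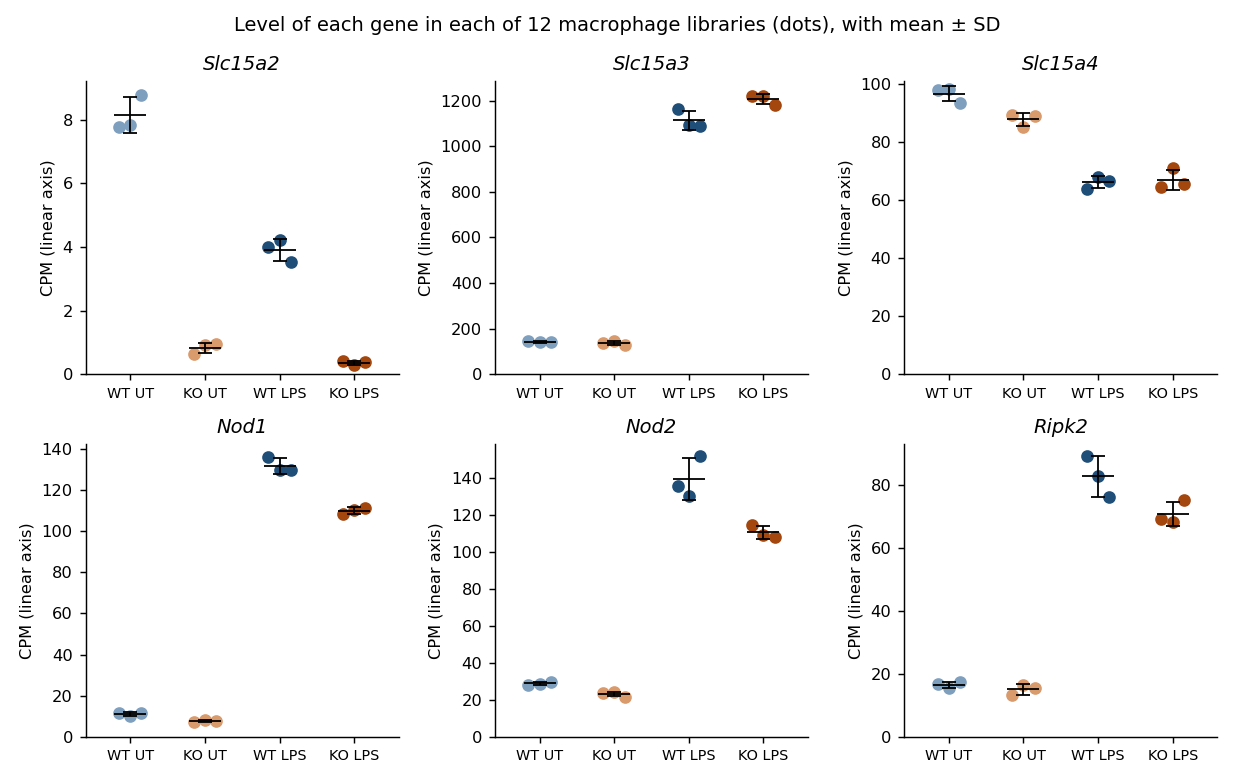
Level of each gene in CPM (linear axis from 0, a separate scale per panel) in the 12 libraries, shown as dots by group, with the mean and SD of 3 libraries as bars. The KO libraries of Slc15a2 all lie below 1 CPM against 3.53 to 8.80 CPM in WT, while Slc15a3, Nod1, Nod2 and Ripk2 separate by LPS first and Slc15a4 is lower after LPS.

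Nod1 (ENSMUSG00000038058.14, chromosome 6, 54923949 to 54972612, minus strand) had the largest LPS response of the 6 genes in fold. Its counts were 497, 459 and 535 in WT UT, 251, 276 and 300 in KO UT, 3653, 2888 and 2751 in WT LPS, and 2824, 2944 and 3044 in KO LPS. Its level rose from 11.04 ± 0.803 to 132 ± 3.74 CPM in WT, an 11.9-fold increase (10.9 to 13.1), and from 7.65 ± 0.428 to 110.0 ± 1.63 CPM in the KO, a 14.4-fold increase (13.0 to 15.9). The KO was lower in both treatments without overlap of libraries, by 1.44-fold without LPS (1.30 to 1.60) and by 1.198-fold after it (1.10 to 1.30).

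The LPS response of Nod1 was larger in the KO by 0.27 on the log2 scale (SE 0.09, 95% interval 0.08 to 0.46), so the genotypes lay closer together after LPS than before. With all 12 libraries this difference passed the adjusted p threshold. It did not pass with the batch as a replicate block, where its value was again 0.27, nor on protein-coding genes alone (0.23), with no filter on low counts (0.30), with a filter at a mean of 1 CPM (0.25), or in 9 of the 12 fits that left out 1 library (WT UT replicate 1 or 3, KO UT replicate 1 or 3, WT LPS replicate 2 or 3, or any KO LPS replicate). Over all 20 alternative settings it ran from 0.23 to 0.35. Within the batches the KO minus WT difference ran from -0.68 to -0.32 without LPS and from -0.33 to -0.22 after it.

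Nod2 (ENSMUSG00000055994.15, chromosome 8, 88647315 to 88688474, plus strand) was higher after LPS and lower in the KO by a similar factor in both treatments. Its level was 28.9 ± 0.817 CPM in WT UT, 23.2 ± 1.25 in KO UT, 139 ± 11.3 in WT LPS and 111 ± 3.37 in KO LPS. The LPS libraries held 136, 130 and 152 CPM in WT and 114, 109 and 108 in the KO. WT LPS replicate 3 stood highest, and no KO library reached the lowest WT library. The KO was 1.25-fold lower without LPS (1.13 to 1.37) and 1.26-fold lower after it (1.15 to 1.38), and both log2 fold changes passed the adjusted p threshold in all 21 alternative settings. The increase after LPS was 4.82-fold in WT (4.39 to 5.29) and 4.77-fold in the KO (4.34 to 5.25), and the responses differed by -0.02 on the log2 scale (SE 0.09, 95% interval -0.20 to 0.17).

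Ripk2 (ENSMUSG00000041135.15, chromosome 4, 16122733 to 16163647, minus strand), the kinase shared by both receptors, was also higher after LPS. Its level was 16.6 ± 0.964 CPM in WT UT, 15.1 ± 1.72 in KO UT, 82.9 ± 6.58 in WT LPS and 71.0 ± 3.87 in KO LPS. The increase was 4.99-fold in WT (4.44 to 5.60) and 4.71-fold in the KO (4.18 to 5.30). After LPS the WT libraries held 89.4, 82.8 and 76.3 CPM and the KO libraries 69.2, 68.3 and 75.4. The groups came within 1 CPM of each other without overlapping, at a log2 fold change of -0.22 (SE 0.07, 95% interval -0.38 to -0.07). Within batches 1, 2 and 3 the difference was -0.37, -0.28 and -0.02.

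The lower level of Ripk2 in KO LPS passed the adjusted p threshold with all libraries but not in 14 of 21 alternative settings. These were DESeq2, RLE scaling, no filter on low counts, the replicate block (log2 fold change -0.23), and 10 of the 12 fits without 1 library, all but those without KO UT replicate 1 or WT LPS replicate 3. Over the 21 settings the log2 fold change ran from -0.28 to -0.16. Without LPS the genotypes overlapped, at a log2 fold change of -0.14 (SE 0.08, 95% interval -0.32 to 0.03). It was -0.21 in DESeq2 and ran from -0.21 (without KO UT replicate 2) to -0.06 (without KO UT replicate 1) over the fits without 1 library, and it passed the threshold in none of the 21 settings.

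Counted over the 6 genes, 1 was called lower in the KO after LPS and 1 without LPS, Slc15a2 in both, and none was called higher. To be called, a gene had to have an adjusted p under 0.05 together with a log2 fold change beyond 1 in size. Over all genes tested, 0.664% were called lower and 0.586% higher in the KO after LPS, and 0.799% lower and 1.02% higher without LPS. By the adjusted p alone 4 of the 6 were lower after LPS (Slc15a2, Nod1, Nod2 and Ripk2) and 3 without LPS (Slc15a2, Nod1 and Nod2), beside 6.54% of all genes lower and 7.78% higher after LPS and 9.69% lower and 14.1% higher without LPS. Under RLE scaling the last pair was 17.7% lower and 11.1% higher. LPS against UT gave 4 genes called higher (Slc15a3, Nod1, Nod2 and Ripk2) and 1 called lower (Slc15a2) in each genotype. The shares over all genes tested were 19.1% higher and 18.7% lower in WT, and 17.7% higher and 19.3% lower in the KO. For the difference between the LPS responses, edgeR called 0 of the 6 genes and DESeq2 also called 0, with 2 at an unadjusted p below 0.05 and 1 (Nod1, higher) past the adjusted p, beside 0.522% of all genes called higher and 1.64% lower, and 7.32% higher and 9.5% lower by the adjusted p alone. Since the 6 genes were listed with results known, nothing is read from these shares.

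**Figure D2:**
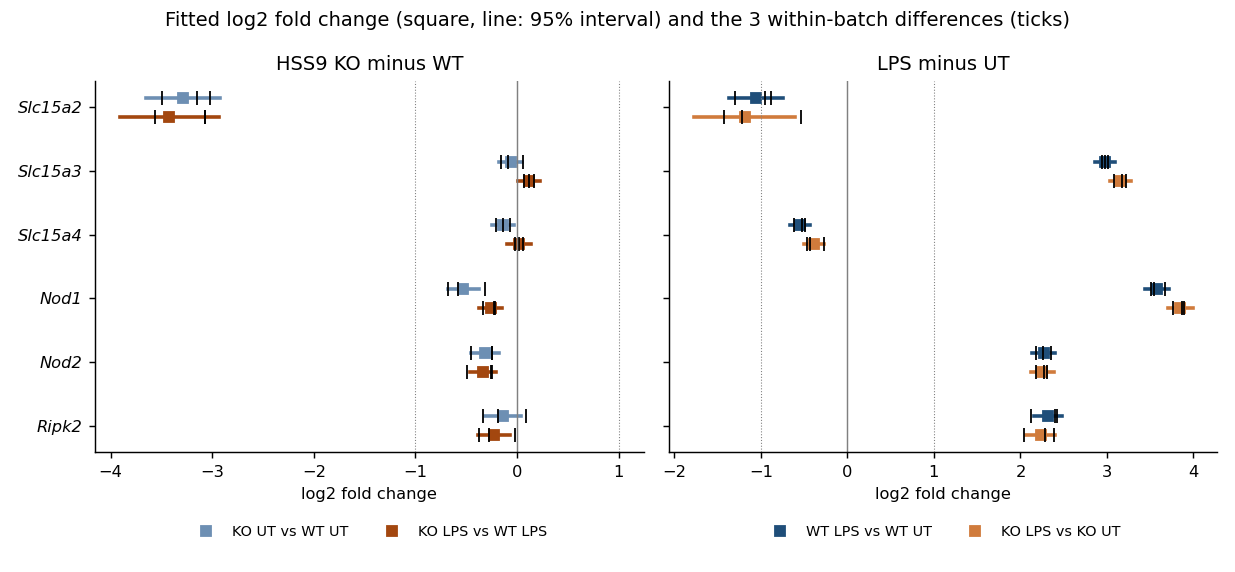
Log2 fold change of each gene between genotypes (left) and between treatments (right) on a common linear scale per panel, as the fitted value (square) with its 95% interval (line) and the 3 within-batch differences in log2 CPM (black ticks). Dotted lines mark a log2 fold change of 1 in either direction, and only Slc15a2 lies beyond them between genotypes.

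Levels were compared between genes per kilobase of merged exon. In WT UT the order was Slc15a3 (25.7 ± 0.477 CPM per kilobase), Slc15a4 (18.2 ± 0.492), Ripk2 (5.90 ± 0.342), Nod2 (5.76 ± 0.163), Nod1 (2.17 ± 0.158) and Slc15a2 (1.11 ± 0.0771). The order was the same in KO UT, and in both groups only the neighbours Ripk2 and Nod2 overlapped. In WT LPS the order was Slc15a3 (203 ± 7.65), Ripk2 (29.4 ± 2.34), Nod2 (27.8 ± 2.26), Nod1 (25.9 ± 0.736), Slc15a4 (12.4 ± 0.408) and Slc15a2 (0.532 ± 0.0473). Ripk2, Nod2 and Nod1 overlapped as neighbours there, whereas in KO LPS Ripk2 (25.2 ± 1.37) lay above Nod2 (22.0 ± 0.673) and Nod1 (21.7 ± 0.320) overlapped Nod2.

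Among the 3 transporters, Slc15a3 made up 57.2% ± 0.692 of the per-length sum in WT UT and 94.0% ± 0.378 in WT LPS. In the KO its share was 59.7% ± 2.11 without LPS and 94.6% ± 0.238 after it. The share of Slc15a2 was 2.46% ± 0.199 in WT UT, 0.273% ± 0.0576 in KO UT, 0.246% ± 0.0219 in WT LPS and 0.0212% ± 0.00362 in KO LPS, so the carrier with the largest genotype difference was the smallest part of the transporter mRNA in each group. Between the receptors, the per-length ratio of Nod2 to Nod1 was 2.66 ± 0.203 in WT UT and 3.08 ± 0.211 in KO UT, and it was 1.07 ± 0.101 and 1.02 ± 0.0463 after LPS. The remaining family members Slc15a1, the intestinal carrier PEPT1, and Slc15a5 were not expressed at a testable level, with at most 1 and 0 counts in a library.

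**Figure D3:**
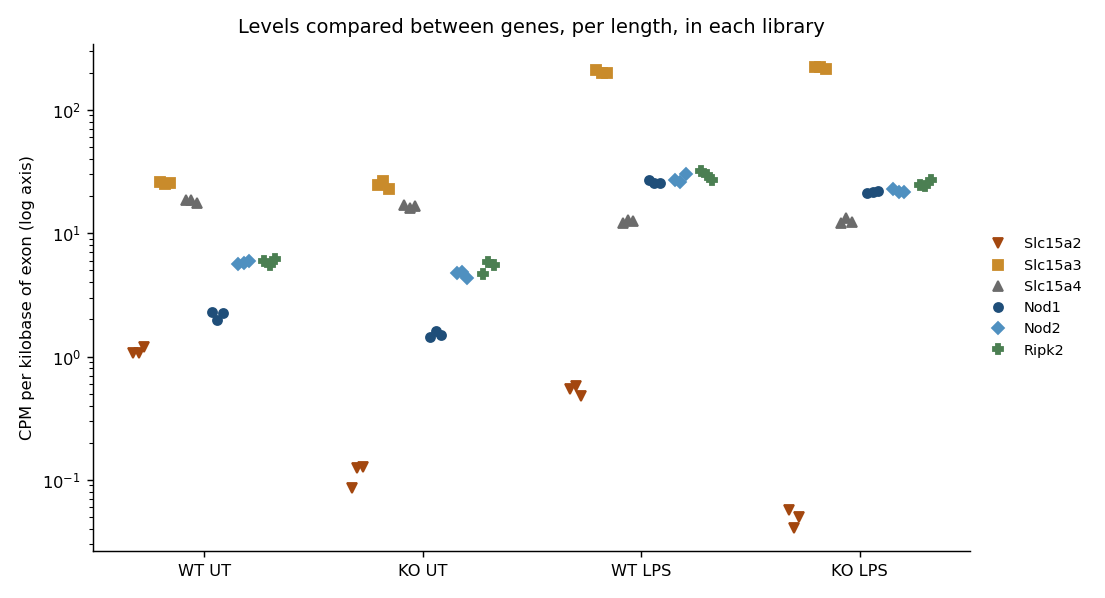
Level of each gene in CPM per kilobase of exon (log axis) in each library, by group, with 1 symbol per gene. Slc15a3 is the highest gene in every library and Slc15a2 the lowest, and Nod1, Nod2 and Ripk2 rise past Slc15a4 after LPS.

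The rest of the pathway was read from a list of 52 genes in 6 functional classes, of which 43 were tested. Like the 6 genes, the list was drawn up with earlier results of these libraries known, so its counts and adjusted p-values, which were computed over all genes tested, describe these libraries and are no independent evidence. After LPS, 11 rose and 3 fell past both criteria in WT, and 13 rose and 4 fell in the KO. These were 25.6% and 6.98% of the list in WT, beside 19.1% and 18.7% of all genes tested, and 30.2% and 9.3% in the KO, beside 17.7% and 19.3%. On protein-coding genes alone 12 rose and 3 fell in WT. Under upper-quartile scaling 8 rose and 5 fell in WT, and 9 rose and 5 fell in the KO, where 2523 of all 15523 genes rose and 3467 fell in WT, and 2324 rose and 3643 fell in the KO. The median log2 fold change of the list was 0.20 in WT and 0.46 in the KO, against 0.05 and -0.06 over all genes tested. In the class of NOD signalling and its regulators (28 tested), 10 rose and none fell past both criteria in each genotype, though under upper-quartile scaling fewer rose and Tab1 was called lower in both. Tnfaip3, which encodes the ubiquitin-editing inhibitor A20, rose by a log2 fold change of 5.34 (SE 0.07) in WT and 5.06 in the KO. Traf2, a ubiquitin ligase adaptor, rose by 2.52 and 2.45. Outside that class Nlrc5, the NLR activator of MHC class I genes, rose by 3.13 and 3.43. Each of these 3 genes rose in all 3 batches of each genotype.

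Slc46a3, a lysosomal carrier of the family that transports muropeptides, had the largest decrease of the list after LPS, at -5.57 (SE 0.11, edgeR adjusted p = 2.02e-21) in WT on the log2 scale and -5.44 (edgeR adjusted p = 6.53e-22) in the KO. Of the 4 tested genes of peptidoglycan handling, 3 fell by the adjusted p in WT and all 4 did in the KO, where 35.3% and 37.7% of all genes tested fell by that rule (38.0% and 35.1% rose). Nlrc3, an NLR that inhibits signalling, fell as well, to log2 fold changes of -3.09 and -2.99, and Ciita, the activator of MHC class II genes, to -1.84 in both genotypes.

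**Figure D4:**
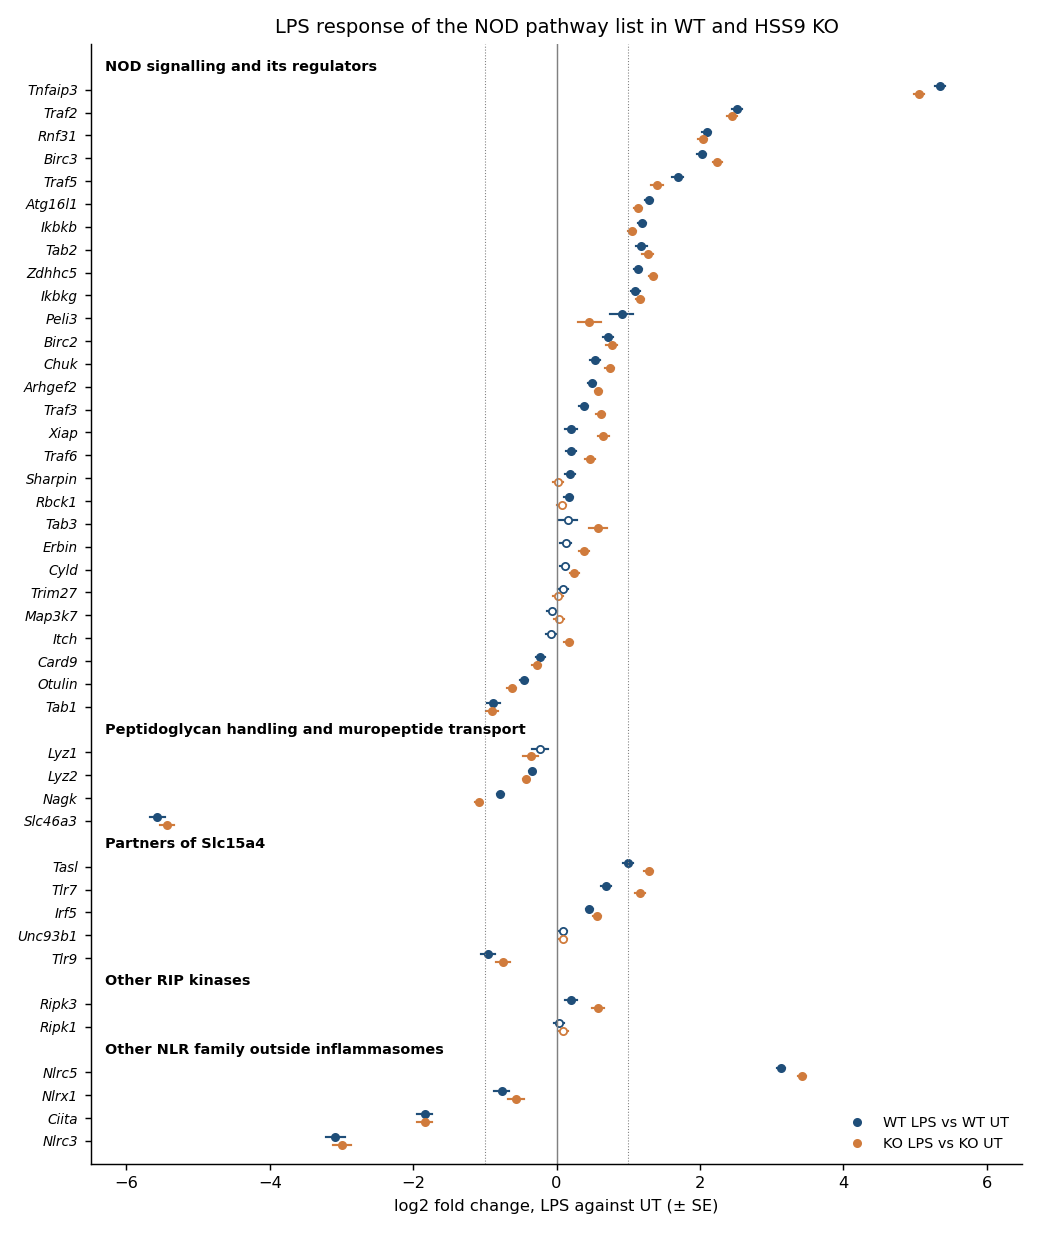
Log2 fold change after LPS (linear axis, line: SE) of the 43 tested genes of the pathway list in WT (blue) and HSS9 KO (orange), grouped by class, with filled dots where edgeR's adjusted p was below 0.05 and dotted lines at a log2 fold change of 1 in either direction. Tnfaip3 and Slc46a3 are the extremes in both genotypes.

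Neither edgeR nor DESeq2 called any of the 43 genes between genotypes, after LPS or without LPS, and the shares over all genes tested were 0.586% higher and 0.664% lower after LPS, and 1.02% higher and 0.799% lower without it, so a count of 0 is near that background. Of the 43, 18 and 21 had an unadjusted p below 0.05 in edgeR. By the adjusted p alone 5 were higher and 5 lower in the KO after LPS, and 6 were higher and 7 lower without LPS. This was 11.6% in each direction after LPS, beside 7.78% higher and 6.54% lower over all genes tested, and 13.95% higher and 16.3% lower without LPS, beside 14.1% and 9.69%. These splits depend on the scaling and on the genes fitted. After LPS 3 were higher and 8 lower on protein-coding genes alone, beside 7.81% and 9.37% of the genes in that fit. Without LPS 5 were higher and 18 lower in DESeq2, 5 and 17 under RLE scaling, and 6 and 12 under upper-quartile scaling, while over all genes tested 11.2% and 18.1%, 11.1% and 17.7%, and 13.1% and 12.6% were. The median log2 fold change was 0.02 after LPS and -0.07 without it, against -0.01 and 0.00 over all genes tested.

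After LPS, Rnf31, the catalytic subunit of the linear ubiquitin ligase that acts on RIPK2 complexes, was lower in the KO by a log2 fold change of -0.35 (SE 0.06, edgeR adjusted p = 0.000526). Tnfaip3 was lower by -0.30 (SE 0.06, edgeR adjusted p = 0.00133). Both were lower in all 3 batches and in all 21 alternative settings by the adjusted p. Ciita was lower by -0.41 (edgeR adjusted p = 0.0246), and passed neither in a fit of the LPS groups alone nor without WT LPS replicate 2 or KO LPS replicate 2 or 3. On the higher side were Xiap, the ubiquitin ligase that binds RIPK2 (0.28, edgeR adjusted p = 0.0233), and 2 partners of Slc15a4: Tasl, which the table holds under its clone name (0.25, edgeR adjusted p = 0.0108), and Irf5 (0.20, edgeR adjusted p = 0.0193). The Xiap libraries of the genotypes overlapped. Its difference did not pass in a fit of the LPS groups alone or without WT LPS replicate 2 or 3 or KO LPS replicate 1 or 3, that of Tasl without WT LPS or KO LPS replicate 3, and that of Irf5 without KO LPS replicate 3. Over all alternative settings the log2 fold change ran from 0.21 to 0.42 for Xiap, 0.19 to 0.31 for Tasl, 0.16 to 0.22 for Irf5 and -0.52 to -0.31 for Ciita.

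Without LPS all 4 tested genes of peptidoglycan handling were higher in the KO by the adjusted p, as were 14.1% of all genes tested. Lyz1, a lysozyme, had a log2 difference of 0.39 (edgeR adjusted p = 0.0077), Slc46a3 of 0.35 (edgeR adjusted p = 0.000213) and Nagk, the kinase of N-acetylglucosamine and muramyl peptides, of 0.33 (edgeR adjusted p = 4.83e-05), each in 3 of 3 batches. Lyz1 did not pass without WT UT replicate 2 (range over settings 0.32 to 0.49), and Lyz1 and Lyz2 are close copies between which reads can be split. The summed neutrophil markers were also higher in KO UT than in WT UT, as given above, and their part in this was not tested. Lower in the KO were Nlrc5 (-0.57, edgeR adjusted p = 5.54e-08), Ripk3, the kinase of necroptosis (-0.54, edgeR adjusted p = 5.21e-05), and Ciita (-0.42, edgeR adjusted p = 0.0013), each in 3 of 3 batches and in all 21 alternative settings.

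The patterns of the 6 genes over the 12 libraries were matched with those of 10855 protein-coding genes by the root-mean-square difference of log2 CPM, each gene centred on its own mean. Closest to Slc15a2 was Pira2, a paired immunoglobulin-like receptor gene, at 0.437. It had 23.1 CPM in WT UT, 1.95 in KO UT, 13.9 in WT LPS and 0.837 in KO LPS. Gdf3, a TGF-β family ligand (0.844), and Gm14548 (0.887) came next. Pira2 and Gm14548 lie among near-identical copies, so their counts are uncertain. For the other 5 genes the closest match was nearer by this measure. It was Ikbke, an IκB kinase-related kinase, for Slc15a3 (0.0808), and the adenylate cyclase Adcy7 for Slc15a4 (0.0480). For Nod1 it was Helz2, a nuclear coactivator helicase (0.0826), for Nod2 the exporter Abcc5 (0.0616) and for Ripk2 the ubiquitin ligase Rffl (0.0785). The KO libraries of Slc15a2 held only 8 to 37 counts. By Pearson r, Slc15a2 and Pira2 were at 0.982, against 0.980 for Slc15a4 and Adcy7, 0.998 for Ripk2 and Rffl, and 0.999 for the remaining pairs. These values describe likeness over libraries that all genes share.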

How the data were processed

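Total RNA was measured in 12 libraries of mouse BMDMs, 3 in each of 4 groups taken from the labels. Per the labels and methods, stranded globin-depleted libraries were sequenced in pairs. The authors aligned reads to GRCm38 with HISAT2 2.1.0 and counted them with featureCounts 2.0.0 (FastQC 0.11.9 and SAMtools 1.17 are also listed in the submitters' processing notes). The deposited table holds raw counts per gene. The annotation release, strand setting and handling of multi-mapping reads are not given in the sources used here, so counts of overlapping genes and near-identical copies are uncertain. Of 48526 identifiers, 48144 matched GENCODE, and the other 382 held 0.122% of counts. No column of per-sample values was left unused.

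Differences were tested by edgeR 4.0.16 quasi-likelihood (limma 3.58.1, R 4.3.3), with TMM scaling and filterByExpr (minimum count 10, minimum total 15). A single model of the 4 group means took in all 12 libraries, with Benjamini-Hochberg adjustment over the 15523 genes kept, which held 99.96% of counts. The common biological coefficient of variation was 0.0712. The script was tested on simulated data. CPM used TMM-scaled library sizes, log2 CPM a prior count of 2, and 3 counts were taken as the floor. Intervals are 95% intervals of the fit, and p-values set a difference against the spread between these libraries. Replicates differed by more than sampling noise (chi-square per degree of freedom of 3.73 to 5.14 within WT UT, 6.84 to 13.0 within KO UT, 11.4 to 42.2 within WT LPS and 4.92 to 8.03 within KO LPS).

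The members and lists were chosen with earlier results of these data known, so no p-value is printed for a member, and the adjusted p-values of list genes are no independent evidence. The rule for names took the 6 members, Tnf, the closest 3 matches by pattern with a mean of at least 1 CPM, and of the list the 3 largest increases and decreases past an adjusted p of 0.05 with a mean of at least 1 CPM in each comparison. Of the matches, all 3 are named for Slc15a2 and the closest for each other gene. Nlrc5 and Tasl in the difference of responses, and Tab1, fall outside the rule and were chosen after their values were seen. In the labels, same-numbered libraries share a batch number, which equals the replicate number. The sources used here do not say what the libraries of a batch had in common. Deviations of same-numbered libraries from their group means did not go together (18 pairs, r from -0.0631 to 0.0373, 0 above 0.1). Each batch holds 1 library per group, so within-batch differences carry no test. Alternatives were DESeq2 1.42.0, other scalings, other filters, the replicate block, the compared groups alone and leaving out each library.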

Additional observations from a re-analysis of the deposited data

Results flagged for a closer look

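The LPS response differed between the genotypes, by a test of that difference itself in edgeR (Benjamini-Hochberg adjusted over all genes tested), for 7 genes of the pathway list. Nod1 also passed that threshold, with a response in the KO minus that in WT of 0.27 on the log2 scale. Since the 6 member genes were chosen from results of these libraries this is given as a description, and it passed in 7 of 20 alternative settings. Among the list genes Tlr7, an endosomal receptor of RNA, had the largest difference, 0.47 (adjusted p = 0.00229), followed by Xiap with 0.45 (adjusted p = 0.0084), and both passed in all 20 settings. Nlrc5 had a difference of 0.30 (adjusted p = 0.00498) and passed in all 20. Nagk had -0.30 (adjusted p = 0.00778) and passed in all but the fit with no filter on low counts. Ripk3 had 0.38 (adjusted p = 0.0326), Tasl 0.29 (adjusted p = 0.0325) and Tnfaip3 -0.28 (adjusted p = 0.0237). These last 3 did not pass in 8, 8 and 7 of the 20 settings. Ripk3, which ran from 0.31 to 0.46 over the settings, did not pass on protein-coding genes alone or without WT UT replicate 1 or 2, KO UT replicate 1 or 2, WT LPS replicate 2 or 3, or KO LPS replicate 1. Tasl, from 0.23 to 0.37, did not pass on protein-coding genes alone, with the replicate block, or without WT UT replicate 3, KO UT replicate 1, WT LPS replicate 2 or 3, or KO LPS replicate 2 or 3. Tnfaip3, from -0.34 to -0.20, did not pass in DESeq2, under RLE scaling, or without WT UT replicate 2, KO UT replicate 1 or 2, or KO LPS replicate 1 or 2. Nlrc5 and Tasl are named here although 3 list genes had larger positive differences. Of the list, 5 genes had a larger and 2 a smaller response in the KO by the adjusted p alone, against 15 and 1 in DESeq2, 12 and 1 under RLE scaling, and 3 and 2 on protein-coding genes alone. Of all genes tested, 7.32% had a larger and 9.5% a smaller response by that rule. These shares were 13.9% and 7.94% in DESeq2, 12.8% and 7.33% under RLE scaling, and 7.45% and 11.6% on protein-coding genes alone. The list was drawn up with earlier results of these libraries known.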

How the results depend on the processing

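Counts of members and list genes called were summed here over higher and lower. These totals stayed within 1.5 times of the reported ones in every alternative except a call by the adjusted p alone. That rule gave 4 members after LPS, 3 without LPS and 1 for the difference of responses, and for the list 10 and 13 genes between genotypes, 34 and 37 after LPS in WT and KO, and 7 for the difference of responses. By direction, list genes called after LPS in WT went from 11 higher and 3 lower to 8 and 5 under upper-quartile scaling. Signs changed for 2 values near 0. Slc15a4 in KO LPS against WT LPS was -0.00455 under upper-quartile scaling and -0.0165 on protein-coding genes alone, and ran from -0.0206 to 0.0477 over the fits without 1 library. The difference of the LPS responses of Nod2 was 0.0647 in DESeq2, 0.0645 under RLE scaling and 0.0163 with no filter on low counts, and ran from -0.0587 to 0.0522 without 1 library. DESeq2 and RLE scaling each moved the median difference of responses over all genes by 0.08, as much as they moved that of Nod2, and the median of KO UT against WT UT by -0.07. For the other sign changes the cause was not tested. With batch as a replicate block, Ripk2 in KO LPS against WT LPS (log2 fold change -0.23) and the Nod1 difference of responses (0.27) no longer passed the adjusted p, nor did that of Tasl, and the block changed no other call of a member or named list gene. Upper-quartile scaling moved the median of all genes by -0.18 (log2) after LPS in both genotypes, which turned no member's LPS response. The Slc15a4 difference of responses rose from 0.16 to 0.24 in DESeq2 and under RLE scaling, past the threshold, and that of Slc15a3 from 0.18 to 0.26, both by the 0.08 that the median of all genes moved. The 3 closest genes by Pearson r shared 2 with those given for Slc15a2, 1 for Nod2 and 0 for each of the other 4. Depth limits Slc15a2 most, at 8 to 37 counts per KO library.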

Other observations

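In the 500 kb on either side of Slc15a2, 7 other genes were tested and none was called in the KO in either treatment. Cd86, which encodes a costimulatory ligand, had a log2 difference of -0.26 without LPS (edgeR adjusted p = 0.0114) and Golgb1 one of -0.18 (edgeR adjusted p = 0.0157). Hcls1 was higher after LPS by 0.19 (edgeR adjusted p = 0.0215). These 3 genes were named after their values were seen. In the same span around Slc15a3, Nod1, Nod2 and Ripk2, 21, 9, 6 and 6 other genes were tested, of which 0 were called in the KO after LPS around the first 3 and 1 around Ripk2. Without LPS 1 was called around Slc15a3 and 1 around Ripk2. The gene after LPS was A530072M11Rik (log2 fold change 1.06, SE 0.33), a processed transcript at a mean of 0.885 CPM. Without LPS they were A430093F15Rik near Slc15a3 (1.85, SE 0.53), a processed transcript at 1.16 CPM, and Gm11874 near Ripk2 (-2.06, SE 0.66), a processed pseudogene at 0.318 CPM. All were named after their values were seen. For comparison, the calls after LPS took in 0.586% (higher) and 0.664% (lower) of all genes tested, and those without LPS 1.02% and 0.799%. No other gene within 500 kb of Slc15a4 was tested.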
